A study of Mus musculus with 2 samples.

Results

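The genes examined here mark the wall of blood vessels. They were 10 genes chosen by name, 5 of mural cells (Myh11, Acta2, Tagln, Cnn1 and Pdgfrb) and 5 of endothelial cells (Cldn5, Pecam1, Flt1, Kdr and Tek), out of 21441 genes with a named probe on a whole-mouse-genome oligonucleotide array. Every spot that was not a control and whose gene symbol was one of these, or an older synonym, was a candidate. Such spots numbered 58, for 22 probes, of which 16 were well above background on all 4 arrays, with at least 1 for each of the 10 genes. Each gene is represented below by its brightest probe, and other probes are given where they bear on the value.

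The arrays carried hypothalamic RNA from mice that had received bezafibrate, a lipid-lowering fibrate and agonist of PPAR nuclear receptors, or from control mice. A square piece of brain around the hypothalamus was taken at ZT10 or ZT22 (zeitgeber time, where lights-on is the zero hour). Each group was a pool of 4 mice, which gave 1 pool and 1 one-colour (Cy3) array for each of 4 groups, namely control at ZT10, bezafibrate at ZT10, control at ZT22 and bezafibrate at ZT22. By the labels, mice entered at 8 weeks of age, ate normal chow for 2 weeks, had 0.5% bezafibrate mixed in over the next 2 weeks and then spent 5 weeks back on chow. They leave unsettled at which stage the brains were collected, and they give no strain, sex or genotype. With 1 pool per group there was no replicate, so no p-value is given for a pair of arrays. Errors behind ± come from the image-extraction software and are called the scanner error here. Their median for a log2 ratio was 0.20, and bright spots shared nearly this value, so it is not a measured spread. Over probes with several spots, the SD of a log2 ratio between spots was smaller, with medians of 0.063 to 0.067. Neither measure covers mice or pools. A spot counted as well above background where that software marked it so.

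In brain vessels, smooth muscle cells encircle arteries and arterioles and set their diameter through an actin and myosin apparatus, while pericytes lie along capillaries. Endothelial cells line the lumen, and their claudin-based tight junctions form the blood-brain barrier. Vascular endothelial growth factor and angiopoietins act on receptor tyrosine kinases of the endothelium, and PDGF-B made by endothelium recruits mural cells through PDGF receptor β. The transcription factor SRF with its coactivator myocardin drives smooth muscle genes through a DNA element named the CArG box. In whole tissue, fewer vascular cells and less RNA per vascular cell cannot be told apart.

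The promoters of Acta2, Cnn1 and Cldn5 are shown because their genes had the largest differences (Cldn5 with time, Cnn1 with bezafibrate) or, for Acta2, because it is the mural gene whose window held the element named above. Each is the 250 bases before the annotated start, from RefSeq on build GRCm38.p6, 5′ to 3′. In Acta2 and Cnn1, capitals mark CArG boxes with at most 1 mismatch among the 6 central A or T bases, an element that reads alike on both strands. In Cldn5, capitals mark a GC box (GGGCGG on either strand).
Acta2, chr19:34255374-34255623, minus strand: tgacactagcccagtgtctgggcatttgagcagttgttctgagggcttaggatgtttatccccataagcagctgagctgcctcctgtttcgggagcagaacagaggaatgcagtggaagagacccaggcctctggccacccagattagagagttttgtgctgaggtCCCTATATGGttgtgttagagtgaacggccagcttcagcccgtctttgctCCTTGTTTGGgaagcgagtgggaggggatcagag
Cnn1, chr9:22099003-22099252, plus strand: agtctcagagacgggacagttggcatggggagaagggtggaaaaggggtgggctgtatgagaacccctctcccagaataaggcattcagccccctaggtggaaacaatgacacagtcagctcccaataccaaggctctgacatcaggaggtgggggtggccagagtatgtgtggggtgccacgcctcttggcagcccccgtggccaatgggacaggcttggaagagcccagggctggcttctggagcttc
Cldn5, chr16:18776597-18776846, plus strand: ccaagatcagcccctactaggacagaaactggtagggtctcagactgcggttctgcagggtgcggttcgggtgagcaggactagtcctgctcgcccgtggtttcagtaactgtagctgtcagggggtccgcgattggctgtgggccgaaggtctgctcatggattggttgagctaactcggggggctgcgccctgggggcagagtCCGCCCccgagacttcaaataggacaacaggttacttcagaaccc

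The Acta2 window held 2 such elements, CCCTATATGG from 84 to 75 bases and CCTTGTTTGG from 34 to 25 bases before the start, each with 1 mismatch. The Kdr window, of an endothelial gene, held 1, CCATTACTGG from 236 to 227 bases before the start. The windows of Cnn1, Cldn5, Flt1 and Tek held none. Among 32851 promoter windows of this length, 8.59% held at least 1 CArG box with up to 1 mismatch and 1.47% a perfect one. A GC box stood in 32.7% of windows, and the E-box CACGTG, to which clock activators bind, in 6.02%. The E-box letters were in none of the 6 windows found for the 10 genes, those of Acta2, Cnn1, Cldn5, Flt1, Kdr and Tek. Promoters of Myh11, Tagln, Pecam1 and Pdgfrb are not shown. A match of letters is a description and says nothing of binding.

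The 10 vascular genes did not all lie on one side with diet or time. With bezafibrate 4 were higher at ZT10 and 3 at ZT22, against 52.7% and 52.2% of all genes. The 3 include Tagln, whose log2 ratio was 0.00. In each diet 6 of the 10 were higher at ZT22 than at ZT10. Of all genes, 58.1% were in control and 59.2% in bezafibrate mice. Single genes stood apart: Cldn5 was higher at ZT22 than at ZT10 in both diets, Myh11 was lower at ZT22 in both diets, and Cnn1 was lower in the bezafibrate pool at both times. Tagln was lowest in the bezafibrate pool at ZT10 by its brightest probe, but in that at ZT22 by its dimmer probe. The other 6 genes, among them the endothelial receptors Flt1, Kdr and Tek and the mural receptor Pdgfrb, differed by less than 1.5-fold in each of the 4 comparisons by their brightest probe.

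**Figure D1:**
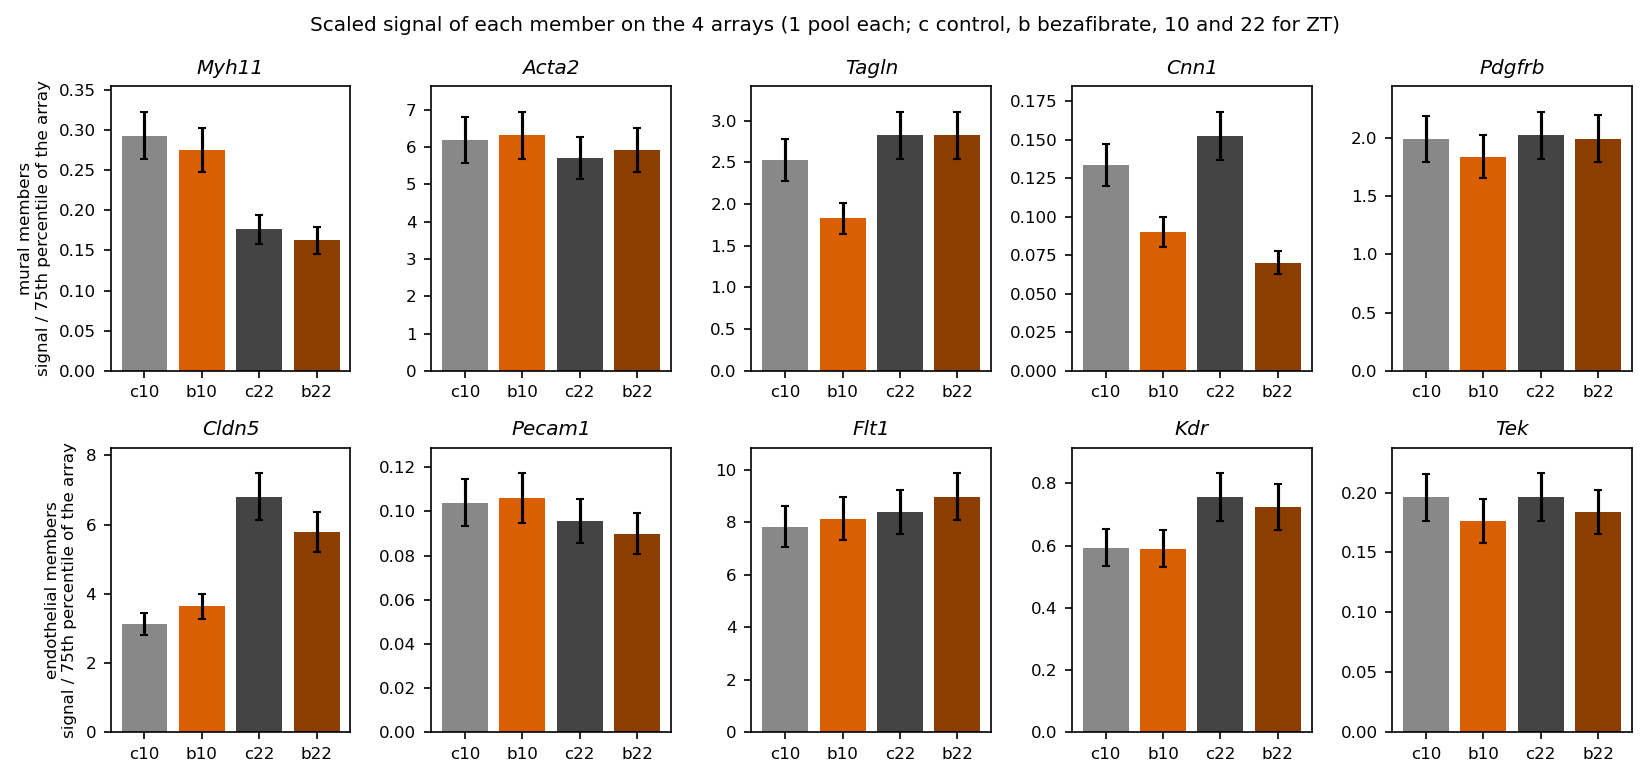
Scaled signal of each of the 10 genes on the 4 arrays, as the signal divided by the 75th percentile of its array. Bars are the brightest probe, error bars the scanner software's error of the signal, the upper row the mural and the lower row the endothelial genes. Cldn5 and Myh11 separate by time, Cnn1 by diet, and the bars of Acta2, Pdgfrb, Flt1 and Tek lie within their errors of each other.

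The smooth muscle genes encode parts of the contractile apparatus. Myh11, the smooth muscle myosin heavy chain (NM_013607), read 296 (control) and 289 (bezafibrate) intensity units at ZT10, then 178 and 145 at ZT22. Both ZT10 pools were above both ZT22 pools. After each array was scaled to its 75th percentile, the log2 ratio of ZT22 to ZT10 was -0.73 ± 0.21 in control mice (1.66-fold lower) and -0.76 ± 0.21 in bezafibrate mice (1.70-fold lower). The diet ratios were -0.09 ± 0.21 at ZT10 and -0.12 ± 0.21 at ZT22, inside the scanner error. Myh11 was measured by 1 probe of 1 spot.

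Cnn1, the actin-binding calponin of smooth muscle (NM_009922), gave 135 units in the control and 94.5 in the bezafibrate pool at ZT10, and 154 and 62.6 at ZT22. Both bezafibrate pools were below both control pools. The log2 ratio of bezafibrate to control was -0.57 ± 0.21 at ZT10 (1.49-fold lower) and -1.12 ± 0.21 at ZT22 (2.18-fold lower). Over time Cnn1 stood at 0.19 ± 0.21 in control mice and -0.36 ± 0.22 in bezafibrate mice. The spot was dim and single, and with normexp background correction the ratio at ZT22 was -0.73.

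Tagln, transgelin or SM22α, an early actin-associated marker of smooth muscle (NM_011526), gave 2550 and 1920 units at ZT10 and 2850 and 2520 at ZT22, control before bezafibrate. The bezafibrate pool at ZT10 was the lowest of the 4. The diet ratio was -0.47 ± 0.20 at ZT10 and 0.00 ± 0.20 at ZT22, and the time ratio was 0.16 ± 0.20 in control and 0.63 ± 0.20 in bezafibrate mice (1.54-fold higher). A dimmer Tagln probe of 143 to 215 units did not show the last difference. Its time ratios were -0.19 in control and -0.15 in bezafibrate mice, and its diet ratios -0.27 and -0.22.

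Acta2, smooth muscle α-actin (NM_007392), gave 6260 and 6630 units at ZT10 and 5770 and 5290 at ZT22, in the same order. None of its 4 ratios passed the scanner error, the largest being -0.12 ± 0.20 for time in control mice. A second Acta2 probe was printed 10 times on each array, and 8 of its spots were usable on each. Its median signal was 1870 (1690 to 1980) and 1745 (1420 to 1820) units at ZT10, and 1905 (1780 to 1960) and 1335 (1190 to 1410) at ZT22. All 8 spots were lower in the bezafibrate pool at both times, and their log2 ratio was -0.17 at ZT10 (SD over spots 0.08) and -0.34 at ZT22 (SD 0.04). The remaining, dimmer probe gave -0.20 and -0.30. The brightest probe thus differed from both others, which lay below it at each time, and which of them follows the Acta2 transcript best was not tested.

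Pdgfrb, the PDGF receptor β of pericytes and smooth muscle (NM_008809), gave 2010 and 1930 units at ZT10 and 2040 and 1780 at ZT22. Its 4 ratios ran from -0.11 ± 0.20 to 0.12 ± 0.20, all inside the scanner error.

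Among the endothelial genes, Cldn5 had the largest difference. Cldn5, the main claudin of the blood-brain barrier tight junction (NM_013805), gave 3170 units in the control and 3820 in the bezafibrate pool at ZT10, and 6870 and 5160 at ZT22. Both ZT22 pools were above both ZT10 pools. The ratio of ZT22 to ZT10 was 1.12 ± 0.20 in control mice (2.17-fold higher) and 0.67 ± 0.20 in bezafibrate mice (1.59-fold higher). The diet ratios had opposite signs, 0.21 ± 0.20 at ZT10 and -0.24 ± 0.20 at ZT22, each only just past the scanner error. Cldn5 had 1 probe of 1 spot.

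Pecam1, the junctional adhesion molecule CD31 (NM_008816), was printed 10 times. Its median spot gave 103 (99.7 to 114) and 111 (100 to 122) units at ZT10, and 96.3 (87.4 to 106) and 80.6 (70.0 to 86.9) at ZT22. Its time ratio was -0.12 ± 0.21 in control and -0.24 ± 0.21 in bezafibrate mice, and all 10 spots were lower at ZT22 in each diet. Pecam1 thus lay on the other side of 0 from Cldn5.

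Kdr, the main signalling receptor for VEGF-A (VEGFR2, NM_010612), was also printed 10 times. Its median spot gave 599 (569 to 646) and 614 (575 to 704) units at ZT10, and 753 (677 to 908) and 639 (592 to 716) at ZT22. All 10 spots were higher at ZT22 in both diets, with time ratios of 0.35 ± 0.20 (SD over spots 0.09) in control and 0.30 ± 0.20 (SD 0.07) in bezafibrate mice. These are 1.28-fold and 1.23-fold. The diet ratios were -0.01 and -0.06. Spots of 1 array share their pool, so their SD is technical.

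**Figure D2:**
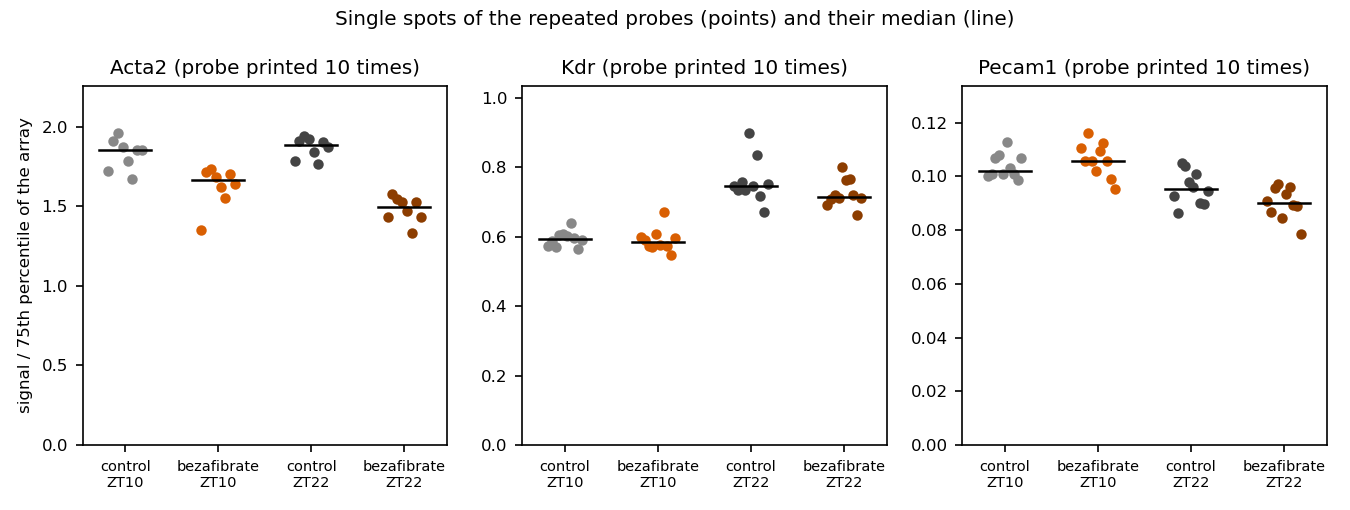
Single spots of the Acta2, Kdr and Pecam1 probes that were printed 10 times, as signal divided by the 75th percentile of the array, with the median as a line. Acta2 shows the 8 usable spots. Kdr spots lie higher at ZT22, Pecam1 spots slightly lower, and the Acta2 spots lowest in the bezafibrate pool at ZT22.

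Flt1, the VEGF receptor VEGFR1 that also exists as a soluble decoy (NM_010228), gave 7910 and 8550 units at ZT10 and 8480 and 8010 at ZT22. Its ratios ran from 0.06 ± 0.20 to 0.14 ± 0.20, inside the error, and those of its other 2 usable probes from -0.10 to 0.27. Tek, the angiopoietin receptor TIE2 (NM_013690), gave 198 and 185 units at ZT10 and 198 and 164 at ZT22, with ratios from -0.15 ± 0.21 to 0.06 ± 0.21. A second Tek probe (AK053336) was dim, at 25 and 34.5 units at ZT10 and 50 and 34.9 at ZT22. By that probe the log2 time ratio was 1 in control mice, against 0 for the brighter probe.

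**Figure D3:**
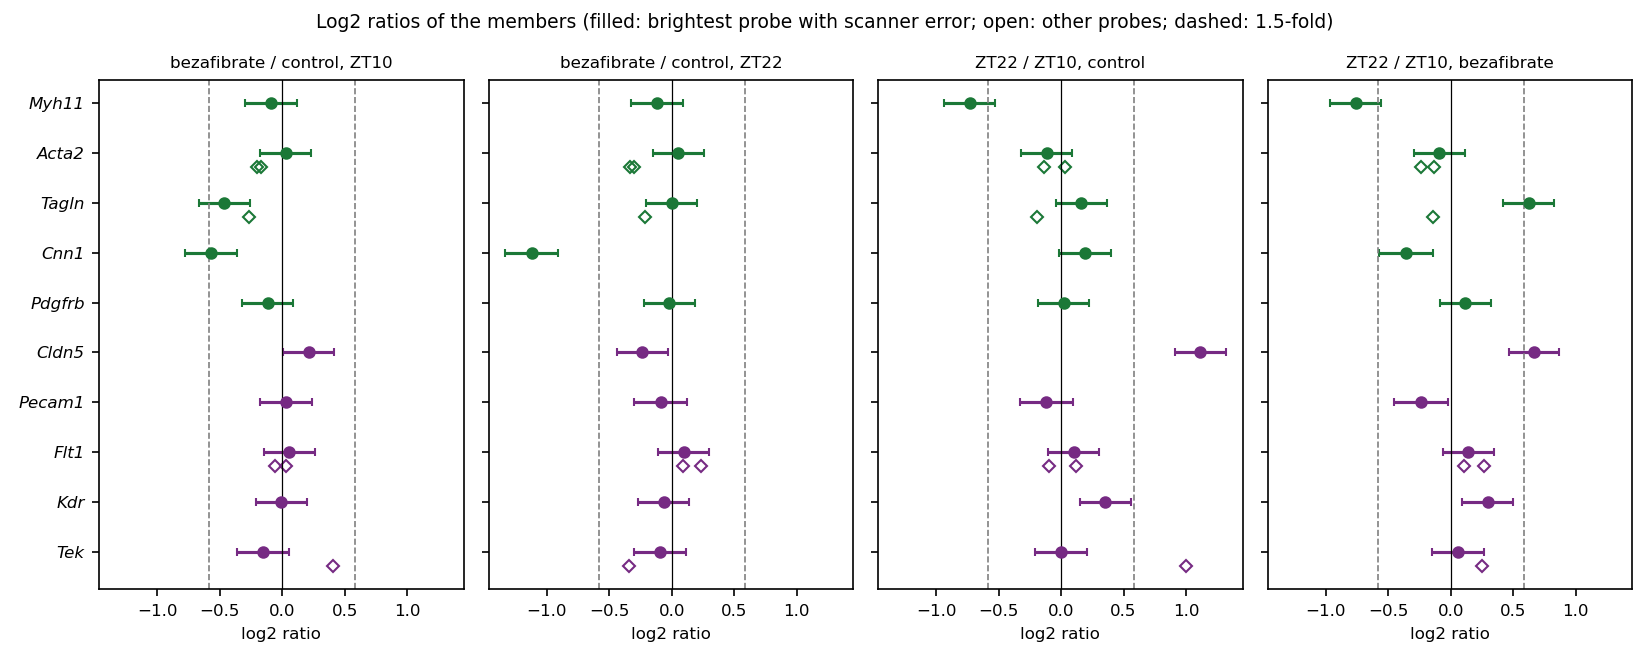
Log2 ratios of the 10 genes in the 4 comparisons. Filled points are the brightest probe with the scanner error, open diamonds other probes above background on all arrays, and dashed lines 1.5-fold. Cnn1 lies beyond the line with bezafibrate at ZT22, and Myh11 and Cldn5 lie beyond opposite lines for time in both diets. The filled Tagln point for time in bezafibrate mice and the open Tek point for time in control mice also lie beyond a line. Most other points lie near 0.

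A gene was counted as different at 1.5-fold or more, among genes well above background on both arrays compared. At ZT10 none of the 10 vascular genes passed in either direction, where 1.07% of 16113 genes were higher and 1.38% lower with bezafibrate. At ZT22 0 genes of the 10 were higher and 1 (Cnn1) was lower, where 1.28% and 1.90% of 16210 genes were. For time in control mice 1 gene (Cldn5) was higher and 1 (Myh11) lower, against 2.54% and 2.05% of 16405 genes. In bezafibrate mice 2 (Cldn5 and Tagln) were higher and 1 (Myh11) lower, against 2.03% and 1.59% of 16007 genes. In the last comparison 2 members rather than 3 passed with the mean of all probes, where Tagln stood at 0.24, and with normexp correction, where Myh11 stood at -0.58, just inside the threshold. Each array serves in 2 comparisons, so a level on a single array, such as Cnn1 in the bezafibrate pool at ZT22, enters both.

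An additive fit of diet and time over the 4 arrays with limma left 1 residual degree of freedom and takes any unequal diet effect as error. No gene of the array passed an adjusted p of 0.05, for diet (0% of 17550 genes) or for time (0%). At an unadjusted p under 0.05, 5.40% of genes passed for diet and 10.7% for time. Of the 10 vascular genes 1 did for diet, namely Cnn1, with a mean log2 effect of -0.85 (SE 0.19) and a limma adjusted p = 0.872. For time 3 did, Myh11 at -0.75 (SE 0.05), Kdr at 0.32 (SE 0.05) and Cldn5 at 0.89 (SE 0.16), each with a limma adjusted p = 0.441. Each of these effects had its direction in both pairs of arrays. The fit takes disagreement between the pairs as error, so a gene that passes has agreeing pairs, and this adds no support.

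Mural and endothelial genes were then set against each other as groups. At ZT10 the median log2 ratio with bezafibrate was -0.11 for the 5 mural and 0.03 for the 5 endothelial genes, a difference of -0.14, beside a median of 0.01 for all genes. The mural gene was the lower in 21 of 25 mural-endothelial pairs. Such pairs cross 5 values with 5 from the same 2 arrays, so they are not independent and only describe the overlap. At ZT22 the medians were -0.02 and -0.09, the difference 0.07 and the count 12 of 25 pairs. For time the medians were 0.02 and 0.10 in control mice (difference -0.08, 16 pairs) and -0.09 and 0.14 in bezafibrate mice (difference -0.23, 18 pairs), with 0.03 and 0.04 for all genes. The groups overlapped in each comparison, and the difference of medians was not tested. It depended on the genes and probes counted. Without Pdgfrb among the mural genes it was -0.31 for diet at ZT10 and -0.37 for time in bezafibrate mice. With the mean of all probes it was -0.33 for time in control mice, and for diet at ZT22 it was -0.03, on the other side of 0. Over members averaging 100 units or more it was -0.20 for time in control mice. For time in bezafibrate mice the spread inside each group was larger than the difference. It ran from -0.76 to 0.63 for the mural and from -0.24 to 0.67 for the endothelial genes.

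Other genes of the vessel wall were taken from lists chosen for their function. Of 24 further smooth muscle genes, 22 were measured, and 14 were lower with bezafibrate at ZT10 (median -0.09) and 16 at ZT22 (median -0.11), against 47.3% and 47.8% of all genes. Those at 1.5-fold were Synpo2, an actin-bundling protein (-0.65 ± 0.20 at ZT10, -0.48 ± 0.20 at ZT22), and, at ZT22, Kcnmb1 (-1.13 ± 0.35), the BK channel subunit of smooth muscle, and Mrvi1 (-0.62 ± 0.20), which mediates relaxation by nitric oxide and cGMP. Of all genes, 1.38% at ZT10 and 1.90% at ZT22 were lower by 1.5-fold with bezafibrate. The Kcnmb1 signals, 25.3 and 24.0 units at ZT10 and 30.2 and 12.2 at ZT22, were dim. For time in bezafibrate mice Smtn, smoothelin (-0.72 ± 0.21), Kcnmb1 (-0.74 ± 0.37) and Pln, phospholamban (-0.59 ± 0.39), were lower by 1.5-fold, against 1.59% of all genes. Pln was dim too, at 14.6 to 25.9 units. Smtn was higher with bezafibrate at ZT10 (0.47 ± 0.20), at 282 units against 196 in the control pool. For time in control mice none of the 22 was different by 1.5-fold. Srf stood between -0.02 and 0.06 in the 4 comparisons, and Myocd was not well above background on any of the 4 arrays.

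Of 13 measured pericyte genes, 11 were lower with bezafibrate at ZT10 (median -0.08) and 9 at ZT22 (median -0.05), against 47.3% and 47.8% of all genes. None was lower by 1.5-fold, as 1.38% and 1.90% of all genes were. Rgs5, a G-protein regulator that marks pericytes, stood at -0.03 ± 0.20 and -0.16 ± 0.20. For time the median was 0.00 in control and 0.03 in bezafibrate mice. In control mice 1 gene, Tbx18, was higher by 1.5-fold, against 2.54% of all genes. Tbx18, a transcription factor of mural cells, stood at 0.60 ± 0.26 in control and 0.37 ± 0.28 in bezafibrate mice. Its signal was dim, at 25 to 37.8 units.

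Of 26 endothelial identity genes, 13 were lower with bezafibrate at ZT10 (median 0.00) and 16 at ZT22 (median -0.02), against 47.3% and 47.8% of all genes. Those higher at ZT22 than ZT10 were 18 in control and 17 in bezafibrate mice (medians 0.06 and 0.05), against 58.1% and 59.2% of all genes. None reached 1.5-fold in a comparison. Cdh5, the adherens junction protein VE-cadherin, had time ratios of 0.32 ± 0.20 and 0.27 ± 0.21. Vwf, von Willebrand factor, chosen after its values were seen, was higher with bezafibrate (0.31 and 0.40) and lower at ZT22 (-0.33 and -0.24). Of 20 blood-brain barrier genes, medians lay between -0.05 and 0.00 in the 4 comparisons and none reached 1.5-fold. Slc2a1, the glucose transporter GLUT1, stood between -0.11 and 0.05. The median time ratio of the barrier list was -0.03 in control and -0.04 in bezafibrate mice.

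Of 25 ligands and receptors of vessel growth, 24 were measured, and none reached 1.5-fold. Vegfa, the ligand of Kdr and Flt1, stood at 0.03 and 0.10 for diet and at 0.10 and 0.17 for time. Pdgfb, the ligand of Pdgfrb, stood at 0.07 and 0.26 for diet and at -0.25 and -0.05 for time. Angpt1, the ligand of Tek, was dim at 27.4 to 34.6 units and stood at 0.28 ± 0.29 and -0.09 ± 0.29 for diet. In the limma fit none of the 22 smooth muscle, 13 pericyte, 26 endothelial identity, 20 barrier or 25 ligand and receptor genes passed an adjusted p of 0.05. At an unadjusted p under 0.05, 1077 of all 17550 genes were higher and 800 lower at ZT22, and 315 were higher and 632 lower with bezafibrate. For time this held for 2 smooth muscle genes higher and 0 lower, 4 pericyte genes higher and 1 lower, 5 endothelial identity genes higher and 1 lower, 1 barrier gene in each direction, and 3 ligand and receptor genes higher and 1 lower. For diet it held for 2 smooth muscle genes and 1 pericyte gene lower, 1 endothelial identity gene and 1 ligand or receptor gene higher, and 0 barrier genes.

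**Figure D4:**
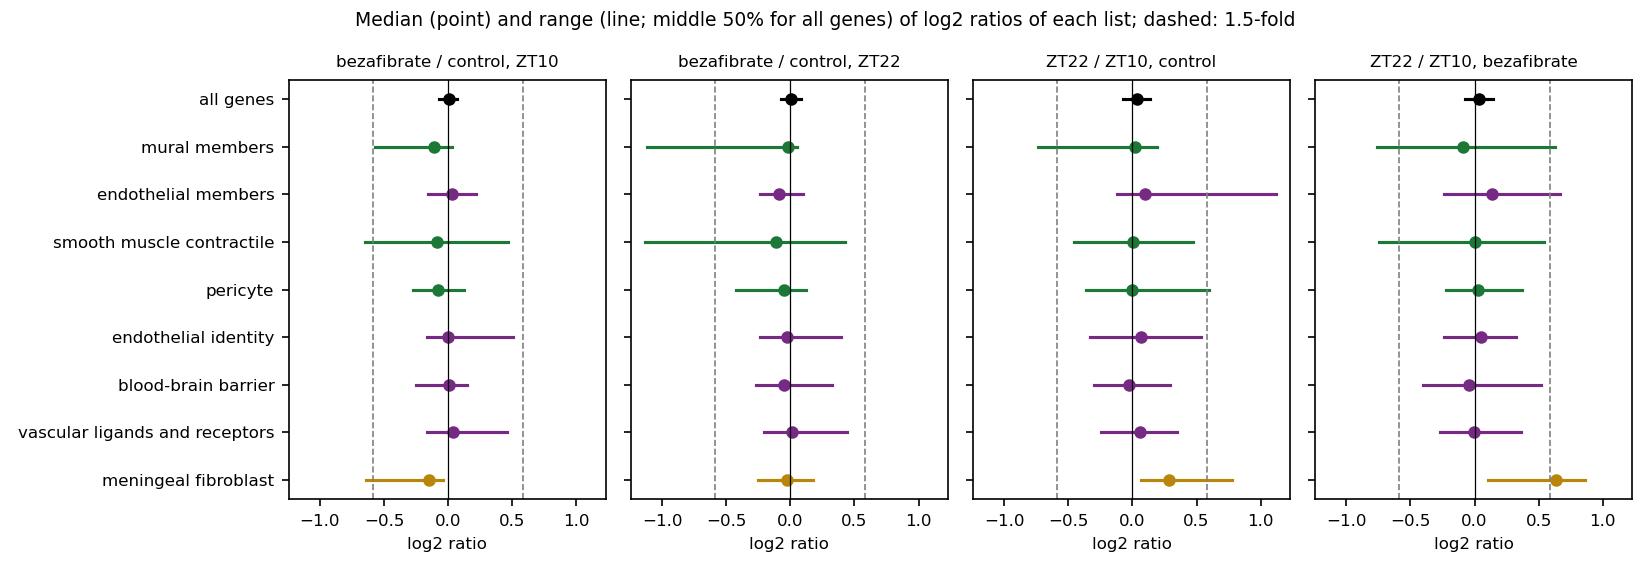
Median (point) and range (line) of log2 ratios for the mural and endothelial genes and for lists of related genes in the 4 comparisons; the line for all genes spans the middle 50%. Vascular medians lie near 0, and the meningeal fibroblast markers lie to the right for time in both diets.

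Markers of neighbouring tissue differed with time and with a single array. All 11 measured meningeal fibroblast markers were higher at ZT22 in both diets (medians 0.29 and 0.64), where 58.1% and 59.2% of all genes were. The largest ratios were in Slc6a13 (0.78 and 0.86), Ogn (0.60 and 0.71), Col3a1 (0.07 and 0.68), Igf2 (0.29 and 0.68), Aldh1a2 (0.52 and 0.67) and Fbln1 (0.25 and 0.64). Col1a1 stood at 0.42 and 0.57. Their summed scaled signal was 12.9 and 11.5 at ZT10 and 15.9 and 15.4 at ZT22, control before bezafibrate. All 11 were lower with bezafibrate at ZT10 (median -0.15), as were 4 of 5 mural genes and 47.3% of all genes. With bezafibrate at ZT22 6 of the 11 and 3 of 5 mural genes were lower, against 47.8% of all genes. For time, where all 11 were higher, 3 of 5 mural genes were in control and 2 of 5 in bezafibrate mice. Meninges carry vessels with smooth muscle, and the part of these markers in the mural values was not tested. The 6 choroid plexus markers were higher in the bezafibrate pool at ZT22 than in the control pool (median 1.47), as were 52.2% of all genes. Ttr stood at 1320 units against 110, and Kcne2, Aqp1, Folr1, Kl and Cldn2 at log2 ratios of 2.56, 1.63, 1.30, 0.88 and 0.87. Their summed scaled signal was 0.587, 0.533, 0.717 and 3.06 in the order above. The Cldn5 difference with time was present in control mice too, whose choroid plexus markers had a median time ratio of 0.18, with Ttr at 0.90 and Kcne2 at 0.71. The part of these markers in the Cldn5 values was not tested. Of 5 skeletal muscle genes, Acta1, an actin close to Acta2 in sequence, stood between -0.21 and 0.15. All 10 hypothalamic markers were above background on all arrays. Among them Agrp was higher (0.98 and 1.68) and Pomc (-1.15 and -0.51) and Avp (-0.67 and -0.32) were lower in the bezafibrate pools. All 10 were higher at ZT22 in bezafibrate mice (median 0.27), where 59.2% of all genes were, and 7 of 10 in control mice (median 0.10). The part of tissue content in the time ratios of the vascular genes was not tested. Of blood genes Hba-a1 was among 3 measured (medians 0.00 and -0.30 for diet, 0.11 and -0.19 for time), and Hbb-b1 was not matched.

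Genes with the most similar profile were sought among 13089 genes above background on all arrays and averaging 100 units or more, by Euclidean distance between log2 profiles centred over the 4 arrays. The mean profile of the 4 smooth muscle genes was 0.21 in the control and -0.07 in the bezafibrate pool at ZT10, and 0.08 and -0.22 at ZT22. This mean joins unlike genes, whose time ratios in bezafibrate mice ran from -0.76 (Myh11) to 0.63 (Tagln). A gene near the mean need not resemble any single one of the 4. The 8 nearest genes (distance 0.032 to 0.069) were 4933415A04Rik, Pstpip1, Npas4, Adamtsl4, Tmem254a, Bfsp2, Car4 and Rilp. The endothelial profile, -0.13, -0.11, 0.16 and 0.08 in the same order, was nearest to Tmem177, Irf3, Cenpv, Sash1, Mplkip, Rbm14, Agap1 and Rflnb. It is a shallow profile, and 8824 genes lay within a distance of 0.3 of it, against 2833 for the smooth muscle profile.

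All arrays lay on 1 slide, where control pools took positions 1 and 2 and bezafibrate pools 3 and 4, so diet and side of the slide cannot be told apart. Between 68.7% and 74.6% of features were well above background, no spot was saturated, and the 75th percentile of the signal was 893 to 1050 units. Precision is limited by the number of arrays.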

How the data were processed

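The data were 4 one-colour arrays of pooled hypothalamus RNA, 400 ng per labelling, each pool from 4 mice. Per the file headers, the authors extracted the spots with Feature Extraction 9.5.1.1. Its signal column, an intensity used as deposited, is background-subtracted and spatially detrended without scaling between arrays. Each deposited sample holds a bezafibrate and a control array, told apart by file label. The deposited value table gives, per the labels, the ratio of bezafibrate over control for present spots. It was linear in that direction (r of 0.988 and 0.990 with the ratio of signals), with a constant log2 factor of -0.14 and 0.10, and column medians of 0.947 and 0.958. How it was scaled is not given in the sources used here. It served as an alternative.

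Signals were divided by each array's 75th percentile over non-control features and taken to log2. After removal of 73 to 142 outlier spots an array, spots of a probe were averaged, and the brightest probe stood for a gene. Of 41174 probes, 22951 got a gene by accession, 5850 by current and 3944 by former symbol (RefSeq, GRCm38.p6), 2225 kept the file's name and 6204 had none. Differences of 2 arrays carry no p-value. The additive fit used lmFit and eBayes of limma 3.58.1, adjusted by Benjamini-Hochberg, over 17550 genes above background on at least 1 array. It was tested on simulated data that gave all genes the same noise and no unequal diet effect. That test thus does not show how the fit deals with either in these arrays. All 10 members were named, with list genes at 1.5-fold (at most 6 per list, above background on all 4 arrays) and a few fixed genes. The members, lists and thresholds were chosen with earlier results of these data known. Alternatives were median scaling, quantile normalization, normexp correction (offset 50), the mean of all probes, filters on dim probes, mural genes without Pdgfrb, the deposited ratios and a 2-fold threshold.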

Additional observations from a re-analysis of the deposited data

Results flagged for a closer look

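Cldn5 had diet ratios of opposite sign at the 2 times, 0.21 ± 0.20 at ZT10 and -0.24 ± 0.20 at ZT22, a difference of -0.45 on the log2 scale. The difference was not tested, since each ratio rests on 1 pool per diet and on 1 spot per array.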

How the results depend on the processing

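Of 180 values of single members under the alternatives, 174 moved by less than the scanner error of a ratio (about 0.20), 6 moved by more and none that passed 1.5-fold changed sign. The 174 include values that had to stay. For Myh11, Cnn1, Pdgfrb, Cldn5, Pecam1 and Kdr the mean of all probes rested on the same probe as the main value. Median scaling shifted all genes of a comparison by the same small amount. The mean of all probes moved the ratio of Tek at ZT10 to 0.13 and for time in control mice to 0.50, of Acta2 at ZT22 to -0.22 and of Tagln for time in bezafibrate mice to 0.24. Normexp correction moved Cnn1 to -0.73 with bezafibrate at ZT22 and to -0.10 for time in bezafibrate mice. Of 74 group medians and differences, 72 moved by less, and median scaling could not move a difference between the groups. With the mean of all probes, for time in control mice, the endothelial median was 0.35 and the mural minus endothelial difference -0.33, through the dim second Tek probe. The count of members at 1.5-fold with bezafibrate at ZT10 was 1 in the deposited ratios against 0. At 2-fold, 1 member differed with time in control mice (against 2) and 0 in bezafibrate mice (against 3). At an unadjusted p, 1 member passed for diet and 3 for time. Adjusted p-values of the members over the 4 limma fits ran from 0.320 to 0.854 for time and from 0.768 to 0.999 for diet. The additive fit already compares diets within each time and times within each diet. A further block by replicate number could not be fitted, since each group holds 1 array, and leaving out an array leaves no residual degree of freedom.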
